A study of Drosophila melanogaster with 36 samples.

Results

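Untreated Kc167 cultures harvested 24 h after a change to fresh medium were compared with untreated cultures harvested at 0 h. The comparison used 8 arrays (4 labelled control at 24 h and 4 labelled control at 0 h) of 36 in the series, and 11982 genes were tested. Kc167 is a Drosophila melanogaster line of embryonic origin with features of hemocytes, the fly's blood cells. Cells were seeded in flasks in Schneider medium with 10% heat-inactivated fetal bovine serum at 22°C, and a day later the medium was replaced by fresh medium, with or without the methylating agent methyl methanesulfonate (MMS, 40 µg/mL). Harvests without MMS were made at 0, 1, 8, 24 and 72 h, and those with MMS at all but the first of these times, which gave 9 groups of 4 arrays. The series' design text calls the 4 cultures independently grown, and all came from the same cell line. In the study the untreated arrays were the baseline for MMS at each time, and the comparison made here asks how that baseline itself moved over a day. The series holds no culture kept in its old medium, so time since the medium change, growth of the culture and cell density cannot be told apart.

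Cultured insect cells draw sugars and amino acids from the medium and lower its oxygen as they multiply. Growth by the TOR and insulin pathways is tied to ribosome production, nucleotide synthesis and DNA replication. Cells short of oxygen raise glycolytic enzymes, and cells short of nutrients lower these growth genes, in flies as in mammals. Glutathione S-transferases, cytochrome P450 enzymes and peroxiredoxins form the cell's detoxifying and antioxidant equipment.

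Most of the largest changes were increases, and most of the changed genes fell by a small amount. At an adjusted p under 0.05 and at least a 2-fold change, 73 genes were higher at 24 h (0.609% of all tested) and 33 were lower (0.275%). At the adjusted p alone, 578 genes rose (4.82%) and 1299 fell (10.8%). In a fit on the 5991 genes at or above the median level, 523 rose and 1396 fell. The shares of all genes include low-level genes, so a list share modestly above 10.8% lower is not read as a result. The median change over all genes was 0.01 on the log2 scale, and 68.9% of the 2-fold calls were increases, against 54.9% when each array was centred on its own median (62 higher and 51 lower). Without the fold threshold the share of increases was 30.8%, against 20.6% after centring. All 4 arrays of 24 h lay beyond all 4 of 0 h for 70 of the 73 and for 33 of the 33 genes, where over all genes 6.05% had 24 h arrays wholly above and 9.81% wholly below. The count of 2-fold decreases depended on single arrays, with 20 without replicate 1 of 0 h and 50 without replicate 2 of 0 h.

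**Figure D1:**
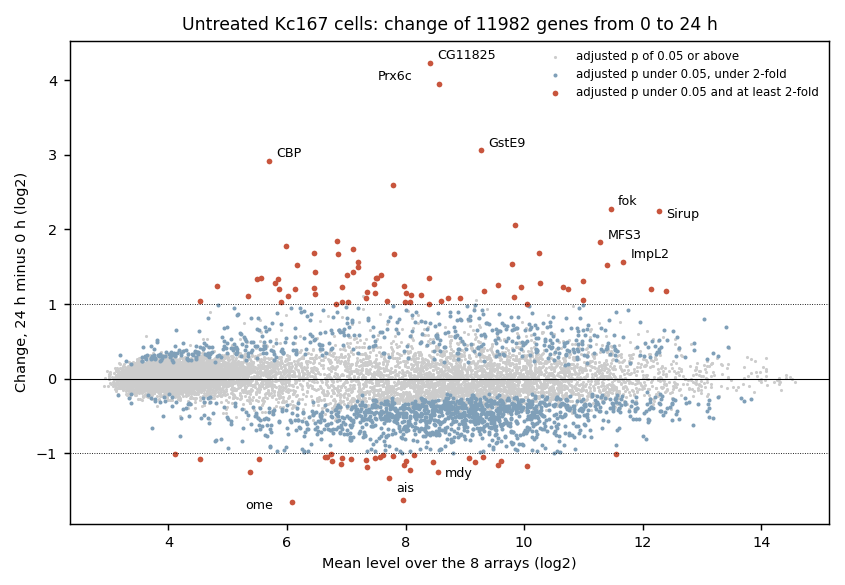
Change from 0 to 24 h in untreated cells (vertical axis, log2) against the mean level over the 8 arrays (horizontal axis, log2), with a point for each of 11982 genes and dotted lines at 2-fold. The 73 red points above the upper line reach 4.23 (CG11825), while the 33 below the lower line end at -1.65 (ome).

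Levels were log2 values per array, and changes are given as log2 differences ± SE of a limma fit with n = 4 arrays per group, with adjusted p-values from limma. Arrays of 0 h correlated with each other at 0.9846 to 0.9956 and arrays of 24 h at 0.9935 to 0.9976. The 0 h arrays were the more variable, with 498 genes at an SD over 0.5 against 30 genes at 24 h. Part of that spread followed gene length. The mean level of long genes minus that of short genes (1493 genes each, from the top and bottom of genomic span among genes at or above the median level) was -0.97, -0.64, -0.28 and -1.48 in replicates 1 to 4 of 0 h and -0.46, -0.77, -1.14 and -1.02 in those of 24 h. The group means were -0.84 and -0.85 (exact two-sided permutation p = 1.0, the smallest possible being 0.0286). With this length index as a covariate, added after the data were seen, 74 genes were higher and 34 lower at 2-fold. At the adjusted p alone, the level at which list members are called, 1153 rose and 1892 fell. Because the group means were nearly equal, the covariate could hardly move the size of a change. The 8 h arrays of both treatments stood apart in the 5' probe set of 18S ribosomal RNA (10.56 to 11.33, against 3.44 to 6.65 in the other arrays), so they enter only the estimate of the spread, and without them 71 genes were higher and 33 lower at 2-fold.

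**Figure D2:**
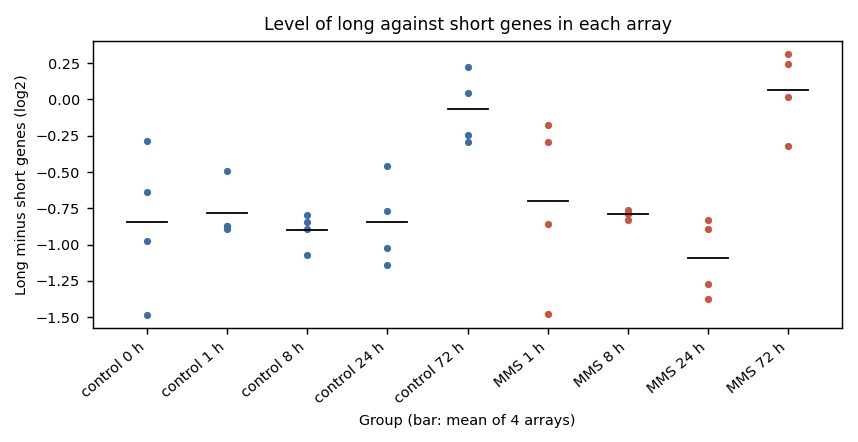
Mean level of long genes minus that of short genes in each array (vertical axis, log2), with a point for each array of the 9 groups and a bar at the group mean. The 0 h arrays spread from -1.48 to -0.28 around nearly the same mean as the 24 h arrays, and the untreated 72 h arrays lay higher, from -0.29 to 0.22.

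The largest increase was that of CG11825, a homologue of the mammalian HIGD1 proteins of the inner mitochondrial membrane. Its arrays read 6.40, 5.84, 6.0 and 6.93 at 0 h and 10.27, 10.52, 10.70 and 10.62 at 24 h, a change of 4.23 ± 0.24 (adjusted p = 1.87e-14) or 18.8-fold. Every 24 h array stood far above every 0 h array. Prx6c, a peroxiredoxin, read 7.09, 6.26, 6.27 and 6.76 at 0 h against 10.32, 10.32, 10.92 and 10.63 at 24 h and rose by 3.95 ± 0.17 (adjusted p = 9.59e-18). GstE9, a glutathione S-transferase of the epsilon class, read 7.93, 7.64, 7.03 and 8.36 at 0 h and 10.64, 10.80, 10.95 and 10.79 at 24 h, and its rise of 3.06 ± 0.19 (adjusted p = 7.18e-14) was 8.33-fold. In none of these genes did the groups overlap, and the 24 h arrays were tighter than the 0 h arrays (SD 0.19, 0.29 and 0.12 against 0.49, 0.40 and 0.56).

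CBP, which encodes a sarcoplasmic calcium-binding protein, was near the array medians at 0 h and well above them at 24 h. The files give no detection call by which its 0 h level could be set against background. The 0 h arrays read 4.58, 4.32, 4.02 and 4.06 and the 24 h arrays 7.11, 7.16, 7.02 and 7.36 (2.92 ± 0.16, adjusted p = 4.33e-15). Sirup, an assembly factor of succinate dehydrogenase known as a starvation-upregulated protein, was already abundant and rose further. It read 11.25, 11.01, 10.77 and 11.55 at 0 h and 13.30, 13.38, 13.47 and 13.44 at 24 h (2.25 ± 0.16, adjusted p = 2.68e-12). Larger than Sirup in this order were fok (2.27 ± 0.18) and CG3348 (2.60 ± 0.29), whose changes differed from that of Sirup by less than the sum of the standard errors.

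Among the 12 largest increases were also Cyp28d1, a cytochrome P450 (1.84 ± 0.14), MFS3, a transporter of the major facilitator superfamily (1.83 ± 0.11), and GstD5, a glutathione S-transferase of the delta class (1.78 ± 0.18). MFS3 was high throughout, with 10.52, 10.32, 10.44 and 10.21 at 0 h and 12.33, 12.29, 12.09 and 12.10 at 24 h. The remaining pair of this group, CG34330 (2.06 ± 0.26) and CG6424 (1.74 ± 0.20), carry no role here. The next in size, named after their values were seen, included CG30022, the homologue of the mitochondrial persulfide dioxygenase ETHE1, at 1.69 ± 0.14, and COX7AL, related to a subunit of cytochrome c oxidase, at 1.67 ± 0.20. The latter read 6.03, 5.56, 6.06 and 6.43 at 0 h and 7.47, 7.73, 7.84 and 7.74 at 24 h.

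**Figure D3:**
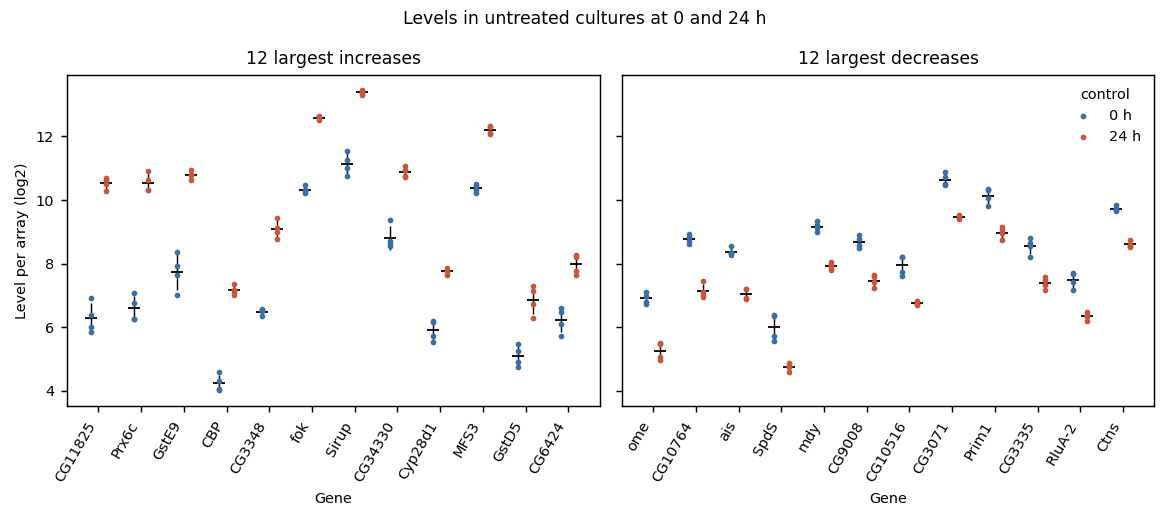
Level of each array (vertical axis, log2) at 0 h (blue) and 24 h (red) for the 12 largest increases (left) and the 12 largest decreases (right) in untreated cells, with the mean and SD of 4 arrays in black. In all 24 genes the red and blue points do not overlap, which the rule that chose these genes required.

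Many enzymes of sugar breakdown rose. Of 37 measured members of the list for glycolysis and sugar handling, 14 rose (37.8%, against 4.82% of all genes), 3 fell and 20 did not pass, and the median change was 0.22. Phosphofructokinase, Pfk, the committing step of glycolysis, read 9.06, 9.04, 9.25 and 8.77 at 0 h and 10.84, 10.58, 10.29 and 10.56 at 24 h (1.53 ± 0.12, adjusted p = 2.96e-11). Triose phosphate isomerase, Tpi, read 11.72, 11.45, 11.23 and 11.74 at 0 h and 12.66, 12.68, 12.89 and 12.71 at 24 h (1.20 ± 0.11, adjusted p = 7.71e-10). All 4 arrays of 24 h were above all of 0 h in both. Smaller increases were those of phosphoglucose isomerase Pgi (0.65 ± 0.11), enolase Eno (0.52 ± 0.07), Pgk (0.44 ± 0.12), aldolase Ald1 (0.33 ± 0.10) and Gapdh1 (0.30 ± 0.08), and for Pgk and Ald1 the arrays of 0 and 24 h overlapped. Without the extreme pair of 0 h arrays (replicates 3 and 4, lowest and highest in the length index), 10 members of the list rose and 4 fell.

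Some genes of glycogen handling and sugar uptake rose. Glycogen phosphorylase, Glyp, which frees glucose units from glycogen, read 8.40, 8.46, 8.62 and 8.03 at 0 h and 9.67, 9.53, 9.28 and 9.35 at 24 h (1.08 ± 0.15, adjusted p = 2.01e-06). Tret1-1, a trehalose transporter, read 7.52, 7.05, 7.71 and 7.12 at 0 h and 8.94, 8.72, 8.18 and 8.51 at 24 h (1.24 ± 0.19, adjusted p = 8.85e-06). Gyg, the glycogenin on which glycogen is started, rose by 1.35 ± 0.19 (adjusted p = 2.77e-06) and was named after its value was seen. Enzymes that move pyruvate and malate between pathways were also higher, namely malic enzyme Men (0.90 ± 0.10) and pyruvate carboxylase PCB (0.79 ± 0.15). Members of the same list that fell were Pdk, the kinase that inactivates pyruvate dehydrogenase (-0.56 ± 0.11), the glycerol-3-phosphate dehydrogenase Gpdh1 (-0.53 ± 0.10) and the sugar transporter sut1 (-0.35, adjusted p = 0.0166).

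No list for oxygen sensing was set, and 3 genes known from it are given as single values, bnl having been chosen after its values were seen. Hph, the prolyl hydroxylase that marks the hypoxia factor sima for destruction and is itself a target of it, read 11.22, 11.34, 11.59 and 11.04 at 0 h and 12.43, 12.23, 12.06 and 12.17 at 24 h (0.92 ± 0.11, adjusted p = 2.42e-07). The groups did not overlap. sima itself read 5.74, 6.64, 6.55 and 5.79 at 0 h and 7.23, 7.14, 6.73 and 6.70 at 24 h and did not pass the test (0.77 ± 0.30, adjusted p = 0.0826), although with the length index as a covariate the same change had an adjusted p of 0.00175. The fibroblast growth factor bnl, which guides tracheal branches to tissue short of oxygen, read 4.94, 6.06, 6.10 and 4.56 at 0 h and 7.49, 7.22, 6.32 and 6.74 at 24 h (1.53 ± 0.31, adjusted p = 5.09e-04). The 0 h arrays of bnl and sima that read low, replicates 1 and 4, are those with the lowest length index.

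Some genes of growth signalling rose as well, and others fell. Of 23 measured insulin, TOR and FOXO genes, 6 rose (26.1%, against 4.82% of all genes) and 3 fell (13.0%, against 10.8%). The median was 0.12. ImpL2, a secreted protein that binds insulin-like peptides, read 10.59, 11.17, 11.23 and 10.57 at 0 h and 12.68, 12.64, 12.19 and 12.31 at 24 h (1.56 ± 0.19, adjusted p = 3.21e-07). The activin-like ligand daw read 5.76, 5.38, 5.79 and 5.50 at 0 h and 7.52, 7.47, 6.88 and 7.30 at 24 h (1.68 ± 0.17, adjusted p = 1.08e-08). Neither gene had overlapping groups. The TOR inhibitor scyl read 7.14, 8.18, 8.57 and 6.99 at 0 h and 9.39, 8.96, 8.86 and 9.08 at 24 h (1.35 ± 0.33, adjusted p = 0.00352), with the same pair of 0 h arrays low.

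Other members of this list went both ways. Lk6, the kinase that phosphorylates the cap-binding factor eIF4E, rose by 0.95 ± 0.22 (adjusted p = 0.00255), unk by 0.77 ± 0.24 (adjusted p = 0.0225) and the gamma subunit of AMP-activated kinase, SNF4Agamma, by 0.76 ± 0.13 (adjusted p = 4.39e-05). The alpha subunit, AMPKalpha, changed by -0.44, and the GATOR components Nprl3 and Nprl2, which restrain TOR when amino acids are short, by -0.41 and -0.34, each past the adjusted p. Mnt, the repressor that opposes Myc, read 6.07, 7.10, 6.95 and 5.95 at 0 h and 7.95, 7.51, 7.45 and 7.28 at 24 h (1.03 ± 0.30, adjusted p = 0.0158) and lost its call without the extreme 0 h arrays, and without replicate 1 or 4 of 0 h or replicate 1 of 24 h.

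Several regulatory genes that passed both thresholds also varied widely among the 0 h arrays. Trf2, a variant of the TATA-binding protein named after its values were seen, read 6.91, 7.93, 8.49 and 6.42 at 0 h and 9.17, 8.83, 8.06 and 8.28 at 24 h, and the groups overlapped (1.14 ± 0.39, adjusted p = 0.0396). Atf3, a stress-response transcription factor, read 5.01, 5.64, 6.42 and 4.79 at 0 h and 7.20, 6.54, 6.24 and 6.30 at 24 h (1.11 ± 0.33, adjusted p = 0.0169). Both lost their call in the fit on the groups compared alone, and without replicate 1 or 4 of 0 h or replicate 1 of 24 h. The RNA-binding protein gene Unr, which read 6.67, 7.40, 7.64 and 6.15 at 0 h against 9.10, 8.71, 8.30 and 8.47 at 24 h, had no overlap (1.68 ± 0.42, adjusted p = 0.00428). In these genes replicates 2 and 3 of 0 h read higher than replicates 1 and 4, the order of the length index in these arrays. With the index as a covariate the changes were 1.15 for Trf2, 1.11 for Atf3 and 1.68 for Unr. That could hardly be otherwise, since the mean index was -0.84 at 0 h and -0.85 at 24 h.

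Glutathione S-transferases rose in part of the family. Of 36 measured members, 11 rose (30.6%, against 4.82% of all genes), 3 fell (8.33%, against 10.8%) and 22 did not pass. The median was 0.12. GstE9 and GstD5 led, and GstE11 read 9.56, 9.26, 8.53 and 9.80 at 0 h and 10.24, 10.33, 10.57 and 10.39 at 24 h (1.09 ± 0.17, adjusted p = 1.91e-05). GstT4 rose by 0.90 ± 0.13, and the further increases, from 0.27 to 0.67, were those of GstE6, Mgstl, GstE2, GstD2, GstT3, GstE1 and GstE7. The members that fell were GstS1, of the sigma class (-0.88 ± 0.12), GstD7 (-0.70) and GstO3 (-0.52). Gst genes of a class lie close together as similar copies, and cross-hybridisation between their probe sets was not tested.

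Cytochrome P450 genes were mostly at low levels. Of 80 measured, 7 rose (8.75%, against 4.82% of all genes) and 6 fell (7.5%, against 10.8%). The median level at 0 h was 4.34, which is under the array medians. Cyp6d5 rose by 1.27 ± 0.14 (7.04, 6.57, 6.78 and 6.93 at 0 h; 8.08, 8.01, 8.22 and 8.10 at 24 h), Cyp4p1 by 1.35 ± 0.18 and Cyp28a5 by 0.99 ± 0.12. Cyp6w1 changed by -0.95 and Cyp6a21 by -0.77. The Keap1-cnc pathway, which controls many antioxidant genes, had 3 of 25 members higher and 2 lower, with a median of -0.02. The methionine sulfoxide reductase MsrA fell by 0.99 on the log2 scale (11.31, 10.97, 10.31 and 11.43 at 0 h, 9.77, 9.90, 10.18 and 10.19 at 24 h, adjusted p = 2.05e-04), and the peroxidase Gtpx rose by 0.35 ± 0.08.

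Both ferritin subunits rose. Of 25 measured genes of metal binding and iron storage, 3 rose and 1 fell, where 4.82% of all genes rose and 10.8% fell. Fer1HCH and Fer2LCH, the ferritin heavy and light chains, changed by 0.47 ± 0.06 (adjusted p = 6.58e-07) and 0.65 ± 0.09 (adjusted p = 1.45e-06). The heavy chain read 12.73, 12.62, 12.47 and 12.69 at 0 h and 13.06, 13.06, 13.16 and 13.13 at 24 h. The metallothionein MtnA read 5.49, 5.50, 6.37 and 5.68 at 0 h and 6.99, 7.22, 6.93 and 7.64 at 24 h (1.44 ± 0.29, adjusted p = 5.68e-04). Irp-1A, an iron regulatory protein of the aconitase family, was lower at 24 h (-0.76 ± 0.13, adjusted p = 9.83e-05).

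A few respiratory genes rose, and most did not pass. Of 50 measured members of the respiratory chain and ATP synthase, 6 rose, 1 fell and 43 did not pass, with a median of 0.28. Over all genes, 4.82% rose and 10.8% fell. The succinate dehydrogenase subunit SdhB read 11.39, 11.39, 11.26 and 11.50 at 0 h and 11.79, 11.94, 12.04 and 11.98 at 24 h (0.55 ± 0.07, adjusted p = 1.45e-06), and SdhD changed by 0.52. The complex III subunit ox rose by 1.15 ± 0.30 (adjusted p = 0.00556) from arrays that spread between 6.09 and 7.68 at 0 h. Mitochondrial ribosomal proteins had 3 of 68 members higher (4.41%) and 1 lower (1.47%), with a median of -0.01. With the length covariate the respiratory list had 15 higher and 2 lower, and the mitochondrial ribosomal list 5 higher and 13 lower. Of the cytosolic ribosomal proteins, 0 of 28 passed in either direction (median 0.07). At an unadjusted p under 0.05 1 of the 28 passed, and without the extreme 0 h arrays 3 rose by limma.

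Among the lists examined, ribosome biogenesis had the highest share of members that fell. Of 46 measured members, 30 fell (65.2%, against 10.8% of all genes), 1 rose and 15 did not pass, with a median change of -0.44. The DEAD-box helicase ais, known in flies as aramis, read 8.55, 8.28, 8.35 and 8.34 at 0 h and 6.89, 7.19, 7.20 and 6.92 at 24 h (-1.33 ± 0.12, adjusted p = 1.01e-09). Nop60B, the pseudouridine synthase of box H/ACA particles, read 12.50, 12.50, 12.25 and 12.59 at 0 h and 11.67, 11.47, 11.72 and 11.76 at 24 h (-0.80 ± 0.09, adjusted p = 1.73e-07). Neither gene had overlapping groups. The box C/D particle proteins Nop56 and Fib changed by -0.77 ± 0.10 and -0.57 ± 0.09, CG9799 by -1.10 ± 0.12, the RNA polymerase I factor Tif-IA by -0.44 and the polymerase I subunit Polr1A by -0.42. RluA-2, a pseudouridine synthase outside the list, fell by 1.15 on the log2 scale (adjusted p = 4.5e-06), and the kinase RIOK1, named after its values were seen, changed by -1.09 ± 0.11. Without the extreme 0 h arrays, 25 members of the list fell and 0 rose.

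Nucleotide synthesis moved the same way. Of 23 measured members, 12 fell (52.2%), 1 rose and 10 did not pass, with a median of -0.40. CTP synthase, Ctps, read 10.22, 10.15, 10.34 and 10.09 at 0 h and 9.36, 9.39, 9.38 and 9.28 at 24 h (-0.85 ± 0.13, adjusted p = 6.73e-06). The IMP dehydrogenase ras changed by -0.78 ± 0.10 (adjusted p = 3.27e-07), Paics by -0.76 ± 0.10 (adjusted p = 6e-07) and Prat, which opens purine synthesis, by -0.65 ± 0.12. The first enzyme of pyrimidine synthesis, r, went from 9.33, 9.60, 9.66 and 8.85 to 8.89, 8.75, 8.24 and 8.50, with overlapping arrays (-0.76 ± 0.18, adjusted p = 0.00248). The member that rose was the salvage enzyme Aprt (0.44).

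Genes of DNA replication and of mitosis are given side by side, and the difference between the lists was not tested. Of 40 measured replication genes, 22 fell (55.0%), 1 rose and 17 did not pass (median -0.40), while of 36 genes of mitosis and cytokinesis 7 fell (19.4%), 0 rose and 29 did not pass (median -0.16). The primase subunit Prim1 read 10.35, 10.07, 9.81 and 10.32 at 0 h and 8.74, 8.97, 9.14 and 9.06 at 24 h (-1.16 ± 0.19, adjusted p = 2.25e-05). The origin recognition subunits changed by -1.07 ± 0.17 (Orc4), -0.94 ± 0.14 (Orc2) and -0.82 ± 0.13 (Orc1). The replicative helicase subunits Mcm3, dpa, Mcm2 and Mcm5 changed by -0.97 ± 0.16, -0.80 ± 0.13, -0.76 ± 0.14 and -0.73 ± 0.14. Their 24 h arrays lay below all 0 h arrays, as in Mcm3, which read 11.17, 10.95, 11.15 and 10.92 at 0 h and 10.14, 10.03, 10.07 and 10.05 at 24 h.

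Cdc7, the kinase that starts replication origins, was the member that rose, from 9.51, 9.95, 10.22 and 9.06 to 10.89, 10.68, 10.29 and 10.40 (0.88 ± 0.19, adjusted p = 0.00118). In mitosis the decreases were smaller. The cytokinesis regulator tum changed by -0.63 ± 0.13 (adjusted p = 4.57e-04), CycB by -0.48 ± 0.10 (adjusted p = 0.00135) and the kinetochore protein Ndc80 by -0.45 ± 0.10 (adjusted p = 9.63e-04). CycB read 11.33, 11.26, 11.35 and 11.24 at 0 h and 10.98, 10.76, 10.74 and 10.80 at 24 h, so the groups were apart although the change was under 2-fold. Of 14 measured G1/S regulators, 4 fell (28.6%, against 10.8% of all genes) and 1 rose (7.14%, against 4.82%). The former included mip120 (-0.60 ± 0.14) and Rbf2 (-0.49 ± 0.15).

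Some genes of amino-acid supply fell. Of 31 transporters of amino acids and nutrients, 9 fell (29.0%, against 10.8% of all genes) and 1 rose (3.23%, against 4.82%), the latter being MFS3. The leucine transporter mnd read 9.58, 9.74, 9.82 and 9.34 at 0 h and 9.13, 8.98, 8.65 and 8.78 at 24 h (-0.74 ± 0.14, adjusted p = 2.46e-04), and CG5535 fell by 0.66 on the log2 scale. In the list for the integrated stress response with amino-acid synthesis, 8 of 30 fell (26.7%) and 2 rose (median -0.04). The members that fell belong to synthesis and one-carbon metabolism, namely Gnmt, which methylates glycine (-1.01 ± 0.14, adjusted p = 3.36e-06), the folate enzyme pug (-0.90 ± 0.15), glutamine synthetase Gs1 (-0.68 ± 0.13), Cbs (-0.66 ± 0.11), Got2 (-0.55), Cth (-0.43), Ahcy (-0.33) and Shmt (-0.28). The members that rose were aay (0.44), the last enzyme of serine synthesis, and PPP1R15 (0.32), which reverses the phosphorylation of eIF2alpha. Of 18 aminoacyl-tRNA synthetases, 6 fell (33.3%) and 0 rose, the decreases being 0.40 to 0.48 on the log2 scale.

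Some of the largest decreases were in genes outside these lists. The dipeptidyl peptidase ome read 7.11, 6.81, 7.0 and 6.72 at 0 h and 5.47, 5.52, 4.97 and 5.08 at 24 h, the largest decrease past both thresholds (-1.65 ± 0.16, adjusted p = 2.84e-09). CG10764, close behind at -1.62 ± 0.15, differed from it by less than a standard error. Spermidine synthase, SpdS, read 6.36, 5.72, 5.56 and 6.40 at 0 h and 4.75, 4.78, 4.88 and 4.61 at 24 h (-1.25 ± 0.17, adjusted p = 2.16e-06). The lysosomal cystine transporter Ctns changed by -1.12 ± 0.14 (adjusted p = 4.67e-07). The others of the 12 largest decreases were CG9008 (-1.22), CG10516 (-1.18), CG3071 (-1.17) and CG3335 (-1.16).

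Lipid genes changed in few members. In the list for fatty-acid and lipid synthesis, 5 of 27 fell (18.5%, against 10.8% of all genes) and 1 rose (3.7%, against 4.82%). The diacylglycerol acyltransferase mdy, which makes triglyceride, read 9.33, 8.99, 9.23 and 9.12 at 0 h and 7.97, 7.81, 7.88 and 8.04 at 24 h (-1.24 ± 0.13, adjusted p = 1.34e-08). The ethanolamine kinase eas changed by -0.94 ± 0.08 (adjusted p = 8.34e-11) and the acyl-CoA synthetase pdgy by -0.71 ± 0.10. In lipid storage and oxidation, 3 of 19 fell (15.8%) and 1 rose (5.26%). The carnitine palmitoyltransferase whd, which admits fatty acids to mitochondria, changed by -0.74 ± 0.12 (adjusted p = 2e-05).

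In the stress and degradation lists some members changed. Each list's share can be set beside that of all genes (4.82% higher and 10.8% lower). In the fit on the 5991 genes at or above the median level, 523 rose and 1396 fell. Shares of decreases modestly above 10.8% are therefore not read as results about these lists. Of 38 genes of autophagy and the lysosome, 7 fell (18.4%) and 1 rose. The initiation factor Atg13 rose (0.78 ± 0.13, adjusted p = 2.82e-05) while the conjugation factors Atg7 (-0.64 ± 0.10) and Atg16 (-0.74 ± 0.12) fell. The proteasome list had 4 of 27 lower (14.8%) and 1 higher. Of 27 genes for chaperones and stress sensors of the endoplasmic reticulum, 4 fell (14.8%) and 2 rose (7.41%), and the oxidase Ero1L, which drives disulfide formation, read 9.47, 9.59, 9.83 and 9.31 at 0 h and 10.75, 10.59, 10.41 and 10.44 at 24 h (1.00 ± 0.13, adjusted p = 6e-07). Of 10 measured heat-shock genes, 3 rose (30.0%), Hsp27 (0.48 ± 0.09), Hsf (0.47 ± 0.13) and Hsp26 (0.40 ± 0.14, adjusted p = 0.0451), although the median of the list was -0.08. Hsp26 lost its call in 12 of its alternatives.

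Signalling and immune lists can be read against the same shares, with the same limit. Of 28 genes of the p53, checkpoint and apoptosis list 6 fell (21.4%) and 0 rose, among them the checkpoint kinase lok (-0.49 ± 0.09, adjusted p = 8.7e-05) and the caspase Dcp-1 (-0.46 ± 0.08). The TNF ligand egr, also in the JNK list, read 6.67, 6.23, 6.55 and 6.31 at 0 h and 5.53, 5.61, 5.35 and 5.60 at 24 h (-0.92 ± 0.12, adjusted p = 1.43e-06), and 3 of 25 members of the JNK list fell. Of 39 immune genes 3 fell (7.69%), the peptidoglycan recognition proteins PGRP-LF (-0.76 ± 0.14) and PGRP-LB (-0.64 ± 0.16) and the Toll pathway kinase pll (-0.54 ± 0.11), and 0 rose. The EGF receptor list had 2 of 21 lower (9.52%), including the secreted inhibitor aos (-0.64 ± 0.16). The Notch list had 1 of 20 in each direction, and so had the Hippo and adhesion list of 36, where kibra rose (0.82 ± 0.14) and the integrin mew fell (-0.62 ± 0.18). Of 18 circadian and immediate-early genes 3 rose and 2 fell, and of 25 ecdysone-response genes 1 rose (ImpL2) and 2 fell.

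**Figure D4:**
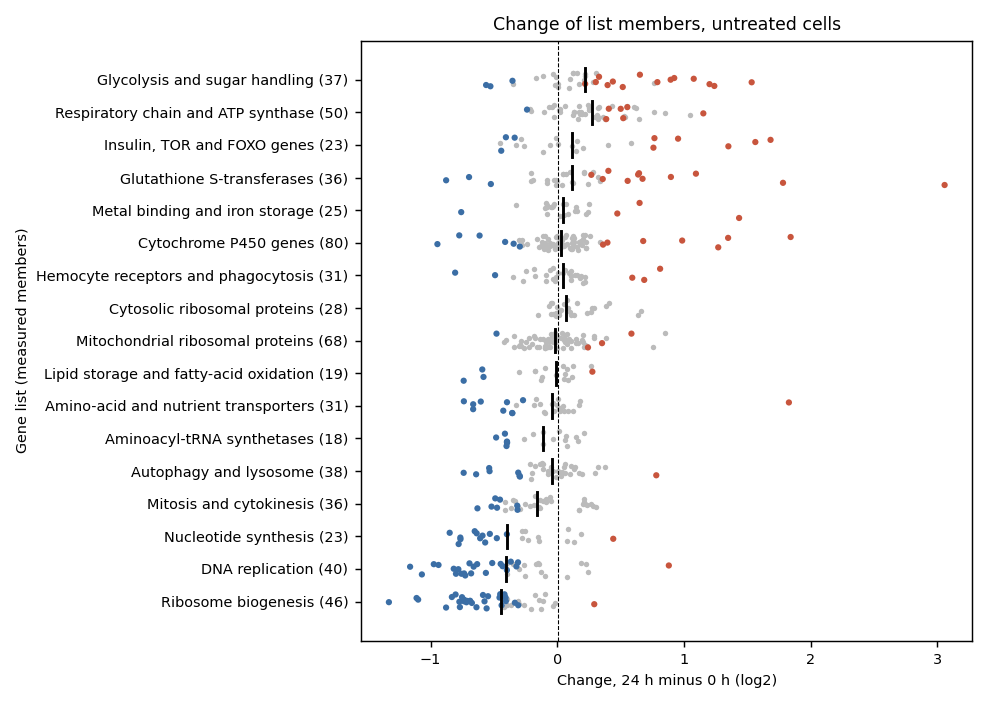
Change from 0 to 24 h (horizontal axis, log2) for the members of 17 gene lists, with the number measured in brackets. Red and blue points passed an adjusted p of 0.05 upward and downward, grey points did not, black bars are list medians and the dashed line is the median of all genes, 0.01. The medians of ribosome biogenesis, DNA replication and nucleotide synthesis lie between -0.44 and -0.40, and those of glycolysis and the respiratory chain at 0.22 and 0.28.

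Some hemocyte markers were high at both times, and others were low. Of 11 hemocyte markers, 2 rose, 1 fell and 8 did not pass. Hml, the clotting protein hemolectin, was high in all arrays (10.92, 12.17, 12.39 and 10.70 at 0 h and 12.15, 11.90, 11.45 and 11.30 at 24 h), as was the GATA factor srp (9.51, 10.31, 10.81 and 9.43 at 0 h and 10.53, 10.23, 9.62 and 10.04 at 24 h). Neither passed the test (0.15 ± 0.31 and 0.09 ± 0.26), and both followed the length index among the 0 h arrays. The collagen IV chains, vkg and Col4a1, were at -0.03 ± 0.23 and -0.08 ± 0.23. The markers that changed were the phagocytic receptor NimC1 (0.69 ± 0.15, adjusted p = 0.00134), the hemocyte surface protein He (0.59 ± 0.17, adjusted p = 0.0148) and peroxidasin, Pxn (-0.81 ± 0.18, adjusted p = 0.00148), which lost its call in the fit on the groups compared alone. The crystal-cell markers PPO1 and lz had means of 4.23 and 3.20 at 0 h, below the array medians. In the wider lists, 3 of 31 hemocyte receptor and phagocytosis genes rose (9.68%, against 4.82% of all genes) and 2 fell (6.45%, against 10.8%). Of these 31 genes, 15 had a mean below the median of all tested genes at 0 h, and 14 at 24 h. Of 21 basement-membrane genes 1 rose (4.76%) and 2 fell (9.52%). In bulk RNA, fewer cells of a type and less RNA per cell cannot be told apart.

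Markers of other cell types lay mostly at low levels, with the germline list the exception at a median of 6.77 at 0 h. Of 11 measured markers of neurons, glia, muscle, germline and fat body, 0 rose, 2 fell and 9 did not pass, with means at 0 h from 3.20 to 6.96. Those that fell were the neuronal elav (-0.61 ± 0.14) and the germline bam (-0.68 ± 0.17). In the wider lists, neuron markers had 2 of 13 higher (15.4%) and 1 lower (7.69%). Their summed level ran from 61.9 to 62.7 at 0 h and from 63.4 to 64.6 at 24 h. The summed level of the 17 cuticle and tracheal markers also separated, from 80.4 to 81.1 at 0 h and from 82.9 to 84.7 at 24 h, and for the glia, muscle, germline, and fat body and gut sums the ranges overlapped. The vesicle fusion protein Snap25 read 6.16, 6.44, 7.15 and 6.04 at 0 h and 7.84, 7.87, 8.10 and 7.99 at 24 h (1.5 ± 0.32, adjusted p = 8.86e-04), while the neuron-defining nSyb was at -0.09 ± 0.11. Glia, muscle and fat body lists had 0 of 7, 0 of 10 and 0 of 11 members called by limma (at an unadjusted p under 0.05 0, 0 and 4). The germline list had 1 of 13 higher (7.69%), AGO3 (1.16 ± 0.26), and 2 lower (15.4%). In the cuticle list 1 of 17 was higher (5.88%), the pigmentation gene y (1.02 ± 0.18).

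The reference genes were not all level. Of 3 measured, Gapdh1 rose by 0.30 ± 0.08 (adjusted p = 0.00675), betaTub56D changed by -0.27 ± 0.07 (adjusted p = 0.00653) and RpL32 did not pass (0.10 ± 0.13, adjusted p = 0.702).

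Few genes had changed 1 h after the medium exchange. Against the same 0 h arrays, 3 genes passed both thresholds of limma at 1 h (0.0250% of all tested), all higher. Without the fold threshold, 24 genes rose (0.200%) and 8 fell (0.0668%), and 856 genes had an unadjusted p under 0.05 in either direction. Without replicate 1 or replicate 4 of 0 h the count was 5. The 3 genes were Prx6c (1.07 ± 0.17, adjusted p = 7.56e-04), olf186-M (1.31 ± 0.11, adjusted p = 2.31e-09) and dnr1 (1.38 ± 0.21, adjusted p = 4.71e-04). Of these, Prx6c was the gene also higher at 24 h, whereas olf186-M read 10.08, 10.14, 10.28 and 10.28 at 1 h and 7.95, 8.17, 8.27 and 8.16 at 24 h, below its 0 h arrays (-0.75 ± 0.11). dnr1 was back at its first level (-0.04 ± 0.21). CG11825 was at 0.90 ± 0.24 at 1 h and did not pass (adjusted p = 0.139), and GstE9 was at -0.16 ± 0.19.

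Between 24 and 72 h the untreated cultures changed further, by 357 genes higher (2.98%) and 346 lower (2.89%) at 2-fold, and without the fold threshold 15.0% of genes rose and 14.9% fell. This comparison shares the 24 h arrays with the one above, so only each comparison's own values are set side by side. Ribosome biogenesis had 40 of 46 members lower from 24 to 72 h (median -0.86), DNA replication 31 of 40 (median -0.77) and mitosis 26 of 36 (median -0.65). Glycolysis and sugar handling had 23 of 37 higher (median 0.46). The respiratory chain, with a median of 0.28 in the first day, had 45 of 50 members lower between 24 and 72 h (median -0.99), and mitochondrial ribosomal proteins had 56 of 68 lower. The 72 h arrays had a higher length index (-0.29 to 0.22), and with the index as a covariate 260 genes were higher and 304 lower at 2-fold.

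Single genes took different courses after 24 h. CG11825 and Prx6c were lower at 72 than at 24 h (-0.77, adjusted p = 0.0126, and -0.50, adjusted p = 0.0219). GstE9 (0.98), CBP (2.11), Pfk (1.17) and ImpL2 (1.16) were higher again, and GstD5 was higher by 5.54 (adjusted p = 1.6e-21). For Sirup and daw the change from 24 to 72 h did not pass (-0.34, adjusted p = 0.112, and 0.06, adjusted p = 0.851).

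Comparisons that share no array with 24 against 0 h were used to look at the same genes again. In untreated cultures at 72 against 1 h, 516 genes were higher (4.31%) and 742 lower (6.19%) at 2-fold. The length index differed between these groups (-0.89 to -0.49 at 1 h and -0.29 to 0.22 at 72 h). With the index as a covariate 391 genes were higher and 701 lower, and the overlaps below were not counted in that fit. Of the 73 genes higher at 24 h, 69 were among the 516 (94.5% of the former and 13.4% of the latter). Of the 33 lower genes, 24 were among the 742 (72.7% and 3.23%). The median change of the 73 genes was 2.15 in that comparison and 1.26 from 0 to 24 h.

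In MMS-treated cultures, 373 genes were higher (3.11%) and 375 lower (3.13%) at 2-fold at 24 against 1 h. The MMS arrays of 1 h varied widely, with 687 genes at an SD over 0.5. Their length index ran from -1.477 to -0.175, and that of the MMS arrays of 24 h from -1.374 to -0.83. With the index as a covariate 399 genes were higher and 309 lower, and the overlaps below were not counted in that fit. Of the 73 genes higher in untreated cultures, 45 were among the 373 (61.6% and 12.1%), while AGO3 and Gprk1 fell (-0.89, adjusted p = 0.00798, and -0.79, adjusted p = 0.0226). Of the 33 lower genes, 7 were among the 375 (21.2% and 1.87%). Without the fold threshold, 26 of the 33 fell with MMS at the adjusted p and 0 rose, and 31 had a negative change. The median change of the 33 genes was -0.8 with MMS and -1.09 from 0 to 24 h in untreated cultures.

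The difference between the treatments was tested as the 1 to 24 h change with MMS minus that without, which 12.5% of all genes passed. It contains the untreated 24 h arrays by which the leading genes were chosen, so no count over them is given and the values below describe single genes. Differences in the length index among the MMS arrays were not taken out of these values. CBP, which rose in untreated cells, was at 4.40 ± 0.15 (SD, n = 4) at 1 h of MMS and 4.79 ± 0.21 at 24 h, and the difference was -2.32 (adjusted p = 1.05e-09). fok (-1.37), Sirup (-1.36) and CG34330 (-1.40) also rose less with MMS. GstD5 went from 5.09 ± 0.30 to 12.75 ± 0.22 with MMS, against 6.87 ± 0.45 in untreated cells at 24 h, a difference of 5.92 (adjusted p = 1.18e-17), and Cyp28d1 differed by 2.46.

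For other leading genes a difference was not detected. The interaction was -0.48 for CG11825 (adjusted p = 0.457), 0.05 for Prx6c (adjusted p = 0.951), 0.03 for MFS3 (adjusted p = 0.96) and 0.15 for Pfk (adjusted p = 0.677). Among the decreases, the difference was positive for SpdS (1.16), CG9008 (1.31) and RIOK1 (1.06, adjusted p = 9.38e-06), none of which passed with MMS alone (-0.16, 0.11 and -0.00). Prim1 fell further with MMS (-1.06, adjusted p = 0.00441), as did Orc2 (-1.26), Mcm3 (-1.26) and tum (-1.53). For ome the interaction did not pass (-0.18, adjusted p = 0.722).

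**Figure D5:**
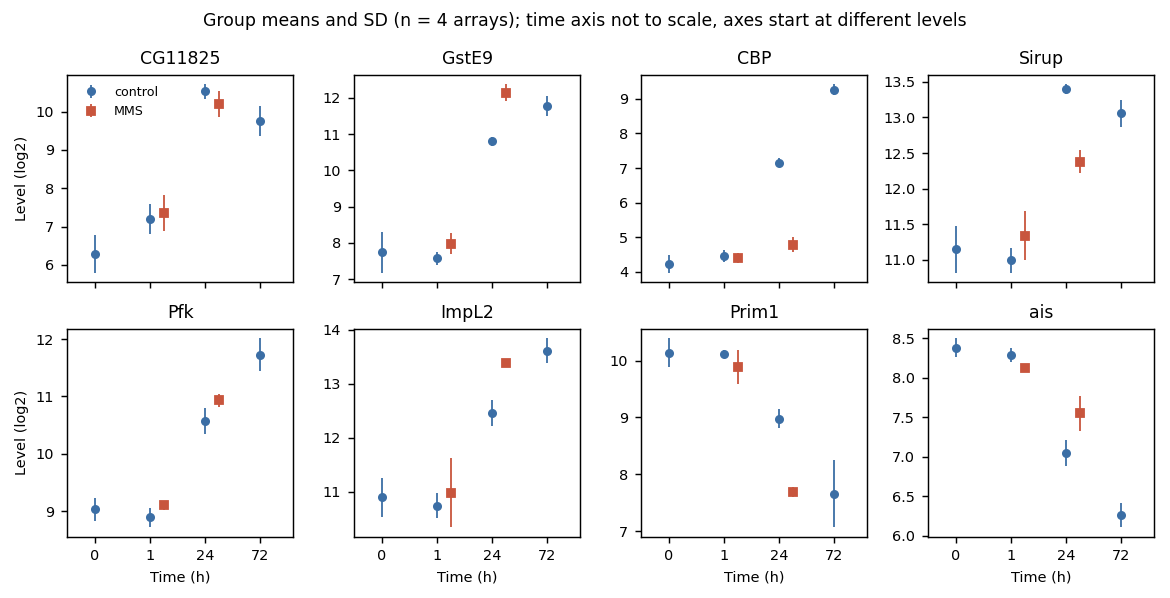
Level (vertical axes, log2, each with its own range) of 8 genes at 0, 1, 24 and 72 h in untreated cells (blue circles) and at 1 and 24 h with MMS (red squares), as means and SD of 4 arrays; the time axis is not to scale and 8 h is left out. CBP rises to 7.16 at 24 h in untreated cells and stays at 4.79 with MMS, while CG11825 reaches 10.53 and 10.20.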

How the data were processed

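RNA of untreated and MMS-treated Kc167 cultures was hybridised to Affymetrix Drosophila Genome 2.0 arrays. The values deposited by the authors are on a log2 scale, a single one for a probe set on an array, and were made with RMA according to the submitters' processing notes (version not given in the sources used here). RMA includes quantile normalization between arrays, which hides any difference in total RNA. The 36 arrays had medians of 4.47 to 4.66, and their number limits the precision. Of 18952 probe sets, 13647 carried 1 gene, 402 several, 4720 no listed gene and 183 were Affymetrix controls. For each gene the probe set with the highest mean was taken, which left 11982 genes. Names were checked against a RefSeq gene table (Release 6 plus ISO1 MT), which also gave genomic spans for 99.2% of genes.

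limma 3.58.1 in R 4.3.3 was fitted with a mean per group over 36 arrays (27 residual and 5.37 prior degrees of freedom), with two-sided moderated tests and Benjamini-Hochberg adjustment over all genes. The study's own permutation analysis was replaced by this test. Genes were called at 2-fold or more with an adjusted p below 0.05, and list members were called at the adjusted p alone. On simulated arrays the fit was checked before use. Samples were grouped by GEO's labels.

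The members and the 40 gene lists (1055 measured genes) were chosen with earlier results of these data known. Lists hold only genes with a probe set of their own, which left 28 of 80 cytosolic ribosomal proteins, 10 of 22 heat-shock genes and 39 of 63 immune genes. Genes named by rule were the top 12 in each direction by size of change, if past both thresholds and without overlap of groups, in every list the members with the lowest adjusted p (at most 3), and the cell type markers (22 of 24 measured); other named genes are list members, or were named after their values were seen. The alternatives were array centring, a further quantile normalization, only the groups compared, no 8 h arrays, a replicate block, genes at or above the median level, the mean of all probe sets, array weights, each array left out and a test against 1.5-fold. A length-index covariate and leaving out both extreme 0 h arrays were added after the data were seen. A description of promoter motifs was not run here.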

Additional observations from a re-analysis of the deposited data

Results flagged for a closer look

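Of 300 groups of 4 arrays tested (the 0 and 24 h arrays of 150 named genes), 10 held an array far from the other 3 by Dixon's criterion, where chance flags about 1 in 20, or 15.0. At 0 h these were Hsp26 (replicate 3, 9.48, low), and, all high, mew (replicate 3, 8.33), Gs2 (replicate 3, 6.68), Rpn6 (replicate 1, 11.80), alphaTry (replicate 2, 4.22), alrm (replicate 4, 3.47), Yp2 (replicate 4, 5.14) and He (replicate 4, 10.92). At 24 h they were NimC1 (replicate 1, 6.09) and Atg16 (replicate 3, 8.37), both high.

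Some of the 12 largest increases and 12 largest decreases in untreated cells had a 1 to 24 h change that differed between MMS and control (interaction test of limma). That test shares the untreated 24 h arrays that chose these genes, so how many of them passed is not read as a result. Of the increases, the MMS minus control difference was 5.92 for GstD5, 2.46 for Cyp28d1, 0.93 for GstE9 and 0.91 for CG6424, and -2.32 for CBP, -1.40 for CG34330, -1.37 for fok and -1.36 for Sirup. Of the decreases, it was 1.31 for CG9008, 1.16 for SpdS, 0.83 for RluA-2, 0.66 for ais, 0.58 for CG10516 and -1.06 for Prim1.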

How the results depend on the processing

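In 231 of the 245 alternative counts of called genes, the count stayed within 1.5 times that reported. At 24 against 0 h, 51 genes were lower after array centring, 42 were higher and 19 lower when tested against a 1.5-fold change, and at the adjusted p alone the fit on the groups compared gave 355 higher and 849 lower. The length covariate gave 1153 higher at the adjusted p alone and 2430 genes whose 1 to 24 h change differed between treatments, and 367 genes were higher without the extreme 0 h arrays. The increases at 1 h numbered 1 on the groups compared alone and 1 in the test against 1.5-fold. The cause was not tested.

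Leaving out each array gave 67 to 108 higher and 20 to 50 lower genes at 2-fold, and 443 to 579 and 917 to 1331 at the adjusted p alone. At 1 h it gave 2 to 5 higher and 0 to 0 lower genes, at 72 against 24 h 315 to 429 and 305 to 405, at 72 against 1 h 475 to 590 and 688 to 799, with MMS 355 to 408 and 330 to 471, and 1323 to 1766 for the interaction.

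Arrays of the same replicate number did not consistently deviate together: their deviations at 0 and 24 h correlated at -0.259, -0.009, -0.678 and 0.469. They were not treated as pairs, and whether the numbers mark shared cultures cannot be told from these values. With the replicate block, 73 genes were higher and 33 lower. Of the alternatives for single named genes, 3374 kept their side of the threshold, 134 lost and 30 gained a call, and 0 reversed. Genes in the text that lost a call without 1 array had these highest adjusted p-values from limma: without replicate 3 of 0 h 0.158 for Hsp26, 0.0917 for mew, 0.0564 for Gapdh1 and 0.0502 for Pgk, without replicate 4 of 0 h 0.181 for Trf2 and 0.0907 for unk, without replicate 1 of 0 h 0.0755 for Mnt, without replicate 2 of 0 h 0.0878 for Ald1, without replicate 1 of 24 h 0.0832 for Atf3, and without replicate 3 of 24 h 0.12 for Rbf2.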
